A study of Mus musculus with 2 samples.

Results

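Mir335, Mir296, Mir298, Mir483 and Mir675 are the mouse microRNA (miRNA) genes followed here, 5 of the 1973 miRNA genes in the deposited tables. They were chosen by gene symbol, because each lies in or beside an imprinted gene outside the Dlk1-Dio3 region: Mir335 in Mest, Mir483 in Igf2, Mir675 in H19, and Mir296 with Mir298 at the Gnas locus. The samples form 1 group, neural tube dissected from B6NCrl mouse embryos at 15.5 days, with both sexes pooled. Library 1 came from 78 embryos and library 2 from 62 embryos, and they are labelled as biological replicates. With a single group of 2 libraries, levels could be described and the pools compared, but no comparison between conditions exists. The embryos are of a single strain, so the counts carry no information on which parental copy a miRNA came from.

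An imprinted gene is expressed mainly from the copy inherited from one parent, as set by DNA methylation laid down in the germ line. Mest, an enzyme of the alpha/beta hydrolase family, and Igf2, a growth factor of the embryo, are expressed from the paternal copy in most tissues. By contrast, H19, a long non-coding RNA beside Igf2, is expressed from the maternal copy. Mir296 and Mir298 have been described as part of the paternally expressed antisense RNA Nespas of the Gnas locus. A miRNA is cut from a hairpin within its host RNA, and pairs with messenger RNAs mainly through its seed, bases 2 to 8 from the 5′ end.

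The 10 mature sequences of these genes, from RefSeq on build GRCm38.p6, are shown because they share no seed and so form no miRNA family. The seed is in capitals.
mmu-miR-335-5p: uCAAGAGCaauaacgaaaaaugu
mmu-miR-335-3p: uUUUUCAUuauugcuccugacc
mmu-miR-296-5p: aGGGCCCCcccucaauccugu
mmu-miR-296-3p: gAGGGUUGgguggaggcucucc
mmu-miR-298-5p: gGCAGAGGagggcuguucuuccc
mmu-miR-298-3p: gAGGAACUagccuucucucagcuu
mmu-miR-483-5p: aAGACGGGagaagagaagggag
mmu-miR-483-3p: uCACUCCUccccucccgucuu
mmu-miR-675-5p: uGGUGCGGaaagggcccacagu
mmu-miR-675-3p: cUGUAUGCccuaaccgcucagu

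The 10 seeds were distinct, and none was the seed of a mature sequence of another gene among the 1738 mature sequences of the RefSeq table. The seed of mmu-miR-296-5p consists of G and C only, 7 of its 7 bases, whereas that of mmu-miR-335-3p holds 1 such base. The arms of Mir335 were low in G and C, with 30.4% in mmu-miR-335-5p and 36.4% in mmu-miR-335-3p, while the other 8 arms held 50% to 68.2%. In Mir483 the bases are split between the strands of the stem: mmu-miR-483-5p has 21 purines (A or G) in 22 bases, and mmu-miR-483-3p has 2 in 21. The deposited counts are per gene and not per arm, so they do not say which arm was the more abundant.

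None of the 5 precursors shared a stretch of 20 bases with another of the 2201 miRNA precursors of GENCODE M21. The mature arms of Mir335, Mir296, Mir298 and Mir483 occurred in no other transcript of GENCODE M21, and those of Mir675 occurred also in H19, its host. Reads that mapped to several places, 29.4% of library 1 and 29.7% of library 2, were counted in no gene. No copy of these sequences was found through which such reads would have been lost, where annotated transcripts were searched and not the whole genome.

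The precursors of Mir335 and Mir675 are shown with their arms in capitals, since these were the most and the least abundant of the 5 genes.
Mir335: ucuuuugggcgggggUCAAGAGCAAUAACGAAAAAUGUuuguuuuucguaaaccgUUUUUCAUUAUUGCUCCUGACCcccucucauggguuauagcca
Mir675: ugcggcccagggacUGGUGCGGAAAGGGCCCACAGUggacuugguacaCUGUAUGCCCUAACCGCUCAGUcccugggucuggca

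The precursor of Mir335 is 98 bases long with 42.9% G and C, and that of Mir675 is 84 bases long with 63.1%. Folded with RNAfold, the Mir675 precursor had a minimum free energy of -56 kcal/mol, or -0.67 per base, and only 2 of the 314 detected miRNA genes with a RefSeq hairpin were lower per base. The Mir335 precursor reached -44.3 kcal/mol, or -0.45 per base, near the median of -0.43 over those hairpins. The most stable of the 5 predicted stems thus belonged to the gene with the lowest count, which is a description of 5 genes and no relation between them.

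On the mm10 genome, Mir335 (ENSMUSG00000065501.1) lies on the plus strand of chromosome 6 from 30741299 to 30741396. It lies 17752 bases after the annotated start of Mest, is spanned by 7 of the 11 Mest transcripts, and overlapped an exon of 0 of them, so it is intronic. Mir483 (ENSMUSG00000070140.1) lies on the minus strand of chromosome 7 from 142654924 to 142654996. It is in an intron of Igf2, spanned by 7 of 9 transcripts with 0 exons overlapped, and also in an intron of the overlapping gene model Gm49394. Mir675 (ENSMUSG00000076275.1) lies on the same strand from 142577064 to 142577147, 77.8 kb from Mir483. It overlaps an exon in 3 of the 4 H19 transcripts that span it, so that short pieces of H19 itself would be counted with it. The part of such pieces in its count was not tested.

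Mir298 (ENSMUSG00000065410.1), at 174267504 to 174267585, and Mir296 (ENSMUSG00000065521.1), at 174267047 to 174267125, lie on the minus strand of chromosome 2 with 378 bases between them. In GENCODE M21 neither overlaps another gene. They lie on the strand of Nespas, 13.7 kb past its annotated 3′ end, and on the strand opposite to Gnas.

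**Figure D1:**
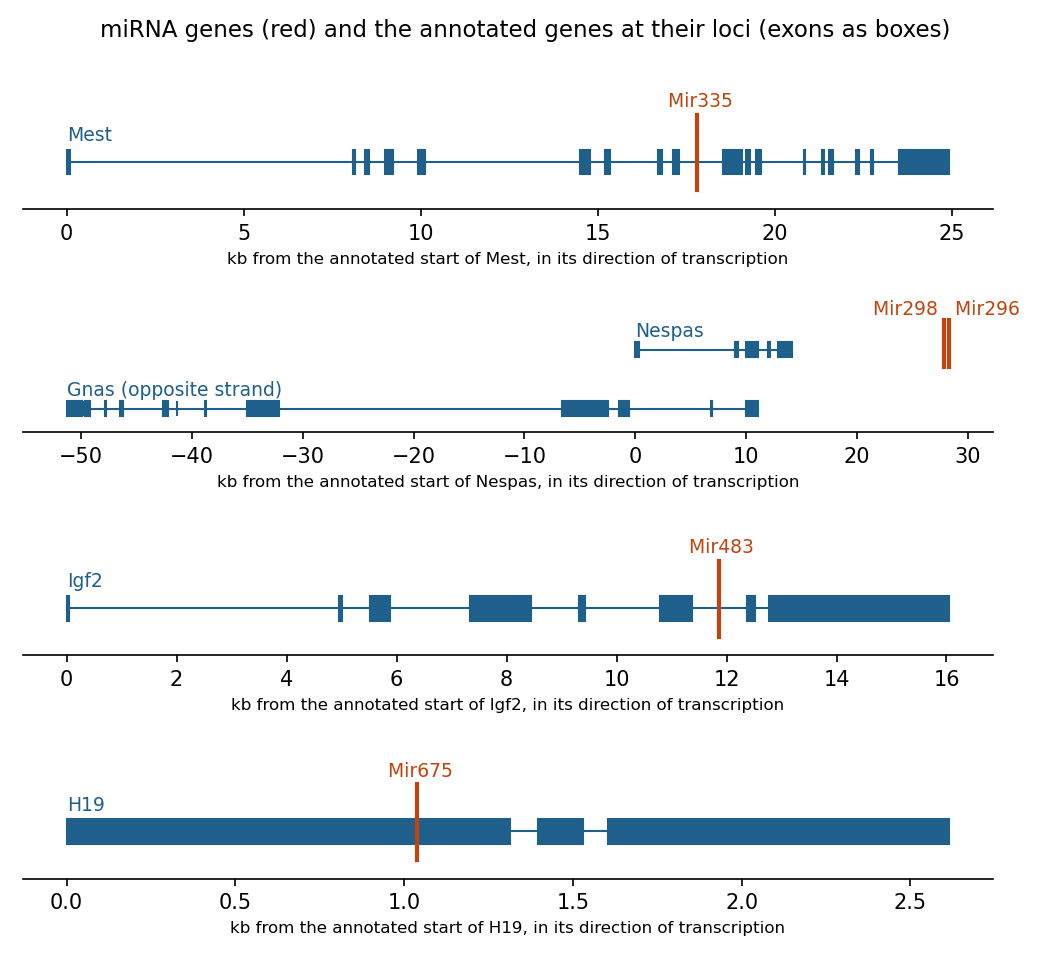
Positions of the 5 miRNA genes (red lines) relative to the annotated genes at their loci (blue, exons of all transcripts merged as boxes), in kb from the start of Mest, Nespas, Igf2 and H19 along each gene's direction of transcription. Mir335 and Mir483 fall between exons, Mir675 falls within the first box of H19, and Mir298 and Mir296 lie 13.7 kb past the annotated end of Nespas.

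Of 7925935 reads in library 1, 4228685 were counted on the sense strand of a miRNA gene, and of 11738914 reads in library 2 it was 6039889. Levels are given as CPM, a gene's sense counts scaled to a fixed total per library. No scaling by gene length is made, because a read was taken to be 1 short arm, which was not tested. Intervals are 95% and cover counting error only, with each read taken as independent. Reads amplified by PCR are not independent molecules, so these intervals can be too narrow. A gene was called detected with at least 10 counts in each library, which 363 genes reached and all 5 imprinted-host genes among them. Markers of neural cells were present, with 6615 CPM of Mir137 in library 1 against 7220 CPM in library 2. Of 15 listed neural marker genes 14 were analysed, without Mir9-1, and 10 of the 14 were detected. The 4 below the limit were Mir9-2 and the 3 copies of Mir124a, all known from neural cells and with at most 2.81 CPM in either library. Both are known to have several gene copies with the same mature sequence, and reads that mapped to several places were not counted, so these levels are uncertain. The same limit can apply to detected neural markers listed in more than 1 copy. These are Mir9-3, Mir128-1, Mir128-2, Mir138-1, Mir138-2, Mir219a-1 and Mir219a-2.

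Together the 5 genes held 2.81% of the sense counts of library 1 and 2.51% of those of library 2, or 2.66% ± 0.213 (SD, n = 2). These shares, and the ranks and the median over detected genes given below, are taken over counted reads only. Reads that mapped to several places are missing from them. Genes with several copies can therefore stand too low, and genes without copies, such as these 5, too high. Mir335 alone made up 84.1% of their counts in library 1 and 83.9% in library 2. Their levels spread over a range of 1562-fold in library 1 (exact interval 1223 to 2028) and 2763-fold in library 2 (2071 to 3774), between Mir335 and Mir675. In bulk tissue, a lower level from fewer cells and a lower level per cell cannot be told apart.

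Mir335 had 99953 counts in library 1 and 127104 counts in library 2, which gave 23637 CPM in library 1 against 21044 CPM in library 2. By counted reads, it ranked 8 among all miRNA genes in both libraries. miR-335 is known in human breast cancer cells as a suppressor of metastasis. The 2 detected genes nearest to it in level over both libraries were Mir126a, the endothelial miRNA gene in Egfl7, which had 22011 CPM in library 1 against 19666 CPM in library 2, and Mir100, which had 27565 CPM in library 1 against 29067 CPM in library 2. This likeness is the distance between log2(CPM + 1) values over 2 libraries, and describes level only.

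The Gnas locus pair came next. Mir298 had 8879 counts in library 1 and 12699 in library 2, which made 2100 CPM in library 1 against 2103 CPM in library 2, a difference smaller than the counting interval of either. Mir298 has been reported in mouse to target Bace1, the beta-secretase. Mir296, reported in mouse embryonic stem cells to target Nanog, had 8936 counts in library 1 and 10722 in library 2, which made 2113 CPM in library 1 against 1775 CPM in library 2. Its intervals, 2070 to 2157 CPM in library 1 and 1742 to 1809 CPM in library 2, did not overlap.

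The level of Mir298 relative to Mir296 therefore differed between the pools. The ratio of counts was 0.994 in library 1 (exact interval 0.965 to 1.02) and 1.18 in library 2 (1.15 to 1.22). Divided by precursor length, it was 0.957 in library 1 and 1.14 in library 2. In library 1 the counts of the pair could not be told apart, and in library 2 Mir298 was the higher. The order of these neighbours is thus not settled by 2 libraries, with means of 2101 ± 1.99 CPM for Mir298 and 1944 ± 239 CPM for Mir296 (SD, n = 2). The genes nearest in level were Mir872 and Mir434 to Mir298, and Mir196a-2 and Mir379 to Mir296. Mir872 had 2094 CPM in library 1 against 2233 CPM in library 2, and Mir196a-2 had 2080 CPM in library 1 against 1657 CPM in library 2. Mir434 and Mir379 belong to the imprinted Dlk1-Dio3 region, where Mir434 had 2064 CPM in library 1 against 2229 CPM in library 2, and Mir379 had 2233 CPM in library 1 against 1898 CPM in library 2.

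The miRNA genes of the Igf2 and H19 neighbours were lower. Mir483, whose 3p arm is known in human cells to target the pro-apoptotic gene BBC3, had 1042 counts in library 1 and 1006 in library 2. This gave 246 CPM (232 to 262) in library 1 and 167 CPM (156 to 177) in library 2, or 206 ± 56.5 CPM (SD, n = 2), above the median of 136 CPM over all detected genes. It ranked 149 in library 1 and 160 in library 2. Nearest in level were Mir374b, at 229 CPM in library 1 against 176 CPM in library 2, and Mir16-2, at 219 CPM in library 1 against 186 CPM in library 2. Mir374b, Mir16-2 and Mir196a-2 each share a stretch of 20 bases with 1 other precursor, so their own levels are uncertain.

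Mir675, which in mouse placenta is known to restrain growth, had 64 counts in library 1 and 46 in library 2. Its level was 15.1 CPM (11.7 to 19.3) in library 1 and 7.62 CPM (5.58 to 10.2) in library 2, with rank 286 in library 1 and rank 306 in library 2. Nearest in level were Mir5113, with 58 counts in library 1 and 53 in library 2, and Mir1955, with 57 in library 1 and 55 in library 2. For each count of Mir675 there were 16.3 counts of Mir483 in library 1 (exact interval 12.6 to 21.3) and 21.9 in library 2 (16.3 to 30.1). These intervals overlapped. The order Mir335, the Gnas locus pair, Mir483 and Mir675 was the same in both libraries, and the gaps between these 4 levels exceeded the spread between the pools.

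**Figure D2:**
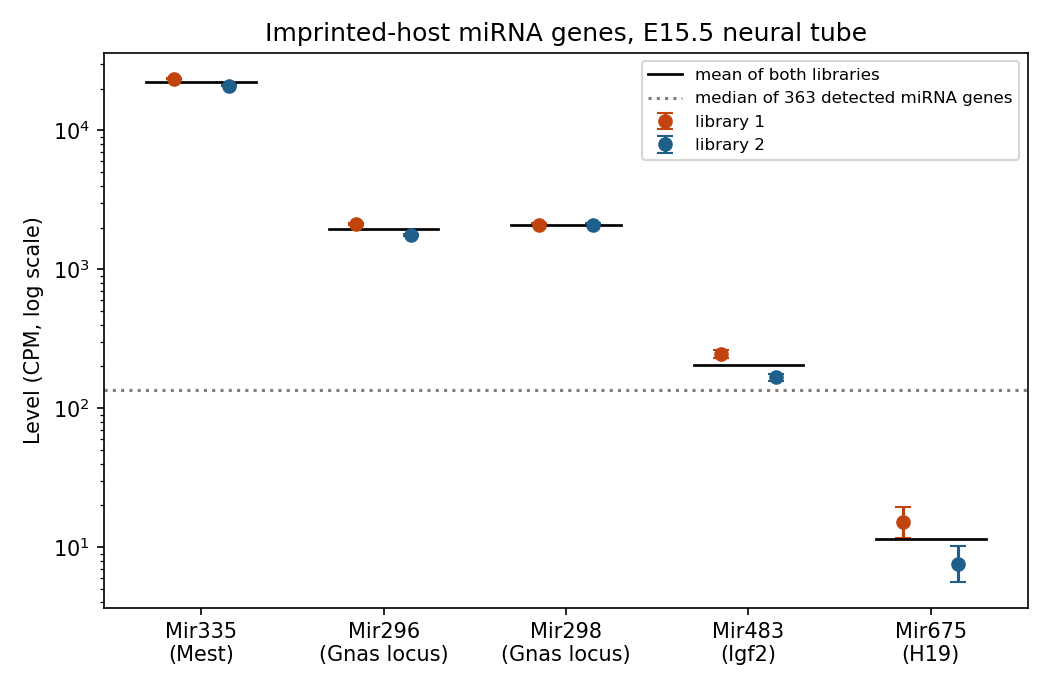
Level of each gene in CPM on a log axis, in library 1 (orange) and library 2 (blue), with 95% exact Poisson counting intervals and the mean of both as a black line; the dotted line marks the median of the detected genes, 136 CPM. Mir675 is the only one of the 5 below that line, and its libraries lie furthest apart.

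Antisense reads were nearly absent from these genes. Mir335 had 1 antisense count in library 1 and 1 in library 2, and the other 4 genes had 0 in both. Over all miRNA genes, antisense reads made up 1.80% of the counts in library 1 and 1.60% in library 2. These are pooled shares, and the antisense share of a typical gene was not tested. Leaving out the 3 most abundant genes lowered the totals with and without regard to strand almost equally in both libraries. Those genes thus also had almost no antisense counts, and the near absence is not particular to the genes followed here.

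The pools were then compared gene by gene, which asks what levels differed by more than counting error. An exact binomial test, two-sided, was run on all 363 detected genes against the effective library sizes from edgeR's TMM method, with Benjamini-Hochberg adjustment over all of them. It compares these libraries and not conditions. Of the 5 genes, 4 passed as higher in library 1 and 0 as higher in library 2, and the call was not made for Mir298. Over all detected genes 25.6% were higher in library 1 and 24.2% in library 2, so that 49.9% passed in either direction. At this depth a small difference passes in an abundant gene, so the size says more than the call. At least 1.5-fold apart was 1 of the 5 genes, higher in library 1, against 13.2% of all detected genes, 11.8% higher in library 1 and 1.38% higher in library 2.

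Mir335 was 1.10-fold higher in library 1 (exact interval 1.09 to 1.11) and Mir296 1.16-fold (1.13 to 1.20). Differences of this size are ordinary in these data, since 217 detected genes differed by more than Mir335. Mir298 did not pass, and its log2 ratio, library 1 over library 2, was -0.04 (interval -0.08 to 0.00; exact binomial test, adjusted p = 0.129).

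Mir483 was 1.45-fold higher in library 1 (1.32 to 1.58; exact binomial test, adjusted p = 4.49e-16). Mir675 was 1.94-fold higher in library 1 (1.31 to 2.90; exact binomial test, adjusted p = 0.00177), and was the gene past 1.5-fold, although its interval reaches below that size. Both genes of the Igf2 and H19 neighbourhood were thus further apart between the pools than the other 3, with Mir675 at place 25 and Mir483 at place 59 of the 363 genes by size of difference. These places take no account of level, and ratios of genes with few counts vary more by counting error alone. At least 1.5-fold apart were 48 of the 363 genes, but 31 of the 288 genes with at least 50 counts in each library. The test has no estimate of the spread between pools, and 2 libraries allow no check of it.

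**Figure D3:**
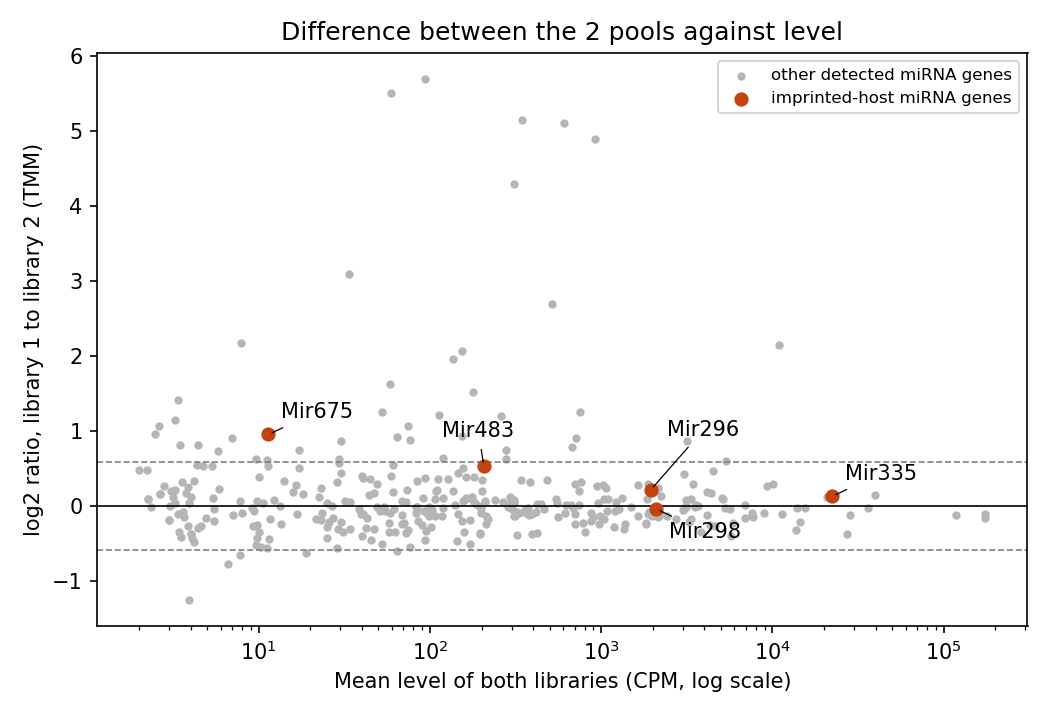
log2 ratio of library 1 to library 2 after TMM scaling against mean level in CPM on a log axis, for all 363 detected genes (grey) and the 5 imprinted-host genes (orange); dashed lines mark 1.5-fold. Mir675 lies above the upper line and Mir483 just below it, while Mir335, Mir296 and Mir298 lie near 0.

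Markers of some other cell types also differed between these pools. Of 8 mesenchyme and smooth muscle marker genes, 6 were detected, of which 5 passed as higher in library 1 and 1 as higher in library 2, and the list held 22420 CPM in library 1 against 7594 CPM in library 2. Most of this was Mir143, and without it the sum was 4471 CPM in library 1 against 3643 CPM in library 2, of which Mir140 held 2985 CPM in library 1 against 3025 CPM in library 2. Of the other detected genes of the list, Mir145a was 4.19-fold higher in library 1, Mir214 2.38-fold, Mir199a-2 1.69-fold and Mir199b 1.29-fold. Mir199a-2 has another copy on the list, Mir199a-1, and reads that mapped to both were not counted, so its level is uncertain. Whether Mir199b shares sequence with these copies was not tested, so the same limit can apply to it. Mir145b had no count in either library. Epithelial markers, 7 of 7 detected and all higher in library 1, held 5458 CPM in library 1 against 631 CPM in library 2. Of 6 choroid plexus markers, 4 were detected, and all 4 passed as higher in library 2, with 570 CPM in library 1 against 750 CPM in library 2. The neural markers held 14274 CPM in library 1 against 15408 CPM in library 2, with 4 of 10 detected genes passing as higher in library 2 and 0 as higher in library 1. The endothelial marker Mir126a held 22011 CPM in library 1 against 19666 CPM in library 2, and passed as 1.09-fold higher in library 1. The liver marker Mir122 held 66.0 CPM in library 1 against 56.3 CPM in library 2 and did not pass. Striated muscle markers held 316 CPM in library 1 against 394 CPM in library 2, and of 5 detected genes 1 passed, Mir206, as higher in library 2. Most of this sum was Mir206, with 283 CPM in library 1 against 360 CPM in library 2. Of 9 listed genes 8 were analysed, without Mir1a-2. Mir1a-1 had 1 count in library 1 and 0 in library 2, and Mir133a-1 and Mir133a-2 had 0 in both. Mir1a and Mir133a are listed in more than 1 copy, so the limit on reads that mapped to several places can apply to them. Erythroid markers held 202 CPM in library 1 against 183 CPM in library 2, and of 3 detected genes 1 passed, Mir144, as higher in library 1. The part of these cell types in the differences of Mir483 and Mir675 was not tested.

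The other imprinted miRNA genes in the tables were set beside these 5. Between Dlk1 and Dio3 on chromosome 12 lie 59 analysed miRNA genes, of which 46 were detected. They held 7.49% of the counts in library 1 and 8.30% in library 2. Over all detected genes the test called 25.6% higher in library 1 and 24.2% higher in library 2. Of the 46 genes it called 5 higher in library 1 and 19 higher in library 2, made no call for 22, and 0 reached 1.5-fold. With library sizes alone 7 were called higher in library 1 and 16 in library 2. Without the 3 most abundant genes it was 2 in library 1 and 21 in library 2. The median log2 ratio of the 46 was -0.09, with a range of -0.56 to 0.36, against 0.22 for the 5 imprinted-host genes, with a range of -0.04 to 0.96, and 0.00 for all detected genes. None of the 46 had a ratio as high as that of Mir483, whereas 2 of the 9 detected genes inside Sfmbt2 did. This cut is the observed ratio of 1 of the 5 genes. At the fixed limit of 1.5-fold, 11.8% of all detected genes were higher in library 1.

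Inside Sfmbt2, an imprinted gene known for its large intronic miRNA cluster, 9 of 107 analysed genes were detected, with 0.369% of the counts in library 1 and 0.362% in library 2. The test called 1 higher in library 1 and 2 higher in library 2 and made no call for 6, and their median log2 ratio was 0.00, with a range of -0.43 to 0.82. Over all detected genes 49.9% were called in either direction. At least 1.5-fold higher in library 1 were 2 of the 9, Mir669h at 1.76-fold and Mir466n at 1.55-fold, neither of which passed the test. Of the 107 precursors 104 share a stretch of 20 bases with another, and reads that mapped to several places were counted in no gene, so the level of this cluster is uncertain. The difference between the lists was not tested, and 5 genes chosen by name are too few to set them apart.

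**Figure D4:**
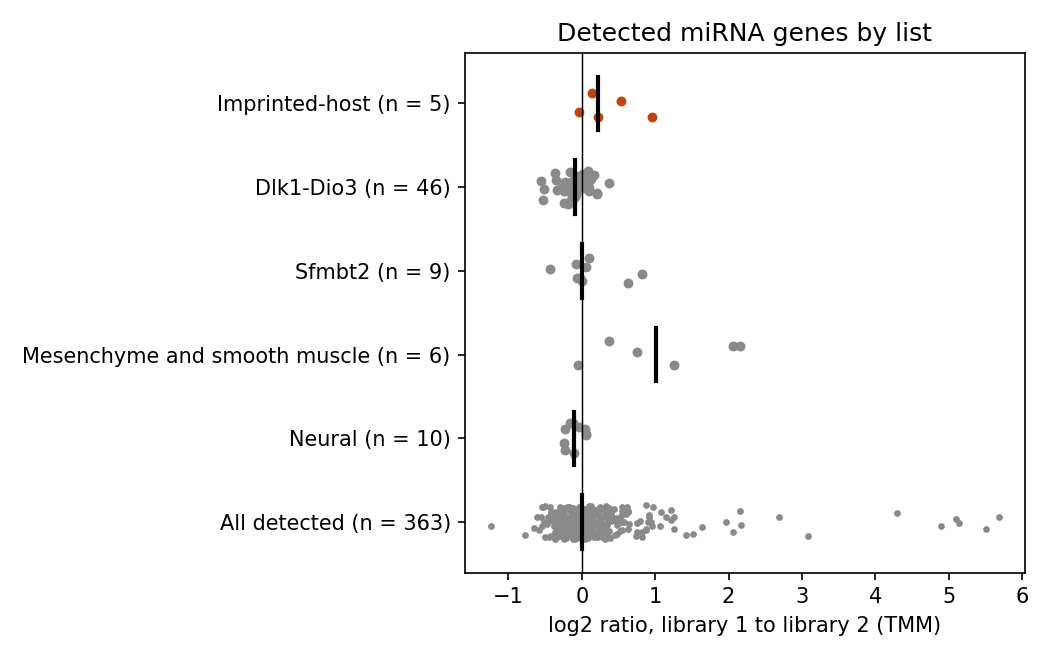
log2 ratio of library 1 to library 2 after TMM scaling for each detected gene of 6 lists, with the median of each as a black bar and points scattered vertically for legibility. The 5 imprinted-host genes (orange) have a median of 0.22, the 46 Dlk1-Dio3 genes -0.09, and the 6 mesenchyme and smooth muscle markers 1.00.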

How the data were processed

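Small RNA of 2 neural tube pools was sequenced, 1 deposited table per library. The authors deposited raw read counts per miRNA gene, whole numbers without regard to strand, on the sense and on the antisense strand. The build was mm10 and the annotation GENCODE M4, per the README text deposited beside each table. The sources used here do not give the aligner, the counting tool or the trimming. Reads in no gene (45.7% of library 1, 47.7% of library 2) were left out of library sizes.

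Symbols for 1894 of 1973 identifiers were taken from GENCODE M21, whose assembly is that of mm10. All 5 genes matched with their version and were found in the RefSeq sequence table. CPM used the sense total. Named neighbours were the 2 nearest detected genes in log2(CPM + 1). The genes and marker lists were chosen with earlier results of these data known. The labels call the pools biological replicates. The binomial p-values cover counting error alone. The binomial test was tried on simulated Poisson counts without any spread between pools. That check covers counting error alone and does not bear on differences between pools. Tools were edgeR 4.0.16, DESeq2 1.42.0, R 4.3.3, ViennaRNA 2.7.2, Python 3.11.15, pandas 2.3.3, numpy 2.4.6, scipy 1.17.1 and matplotlib 3.10.9. Alternatives changed the scaling, the count filter, the strand, the scaling by precursor length and the libraries used.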

Additional observations from a re-analysis of the deposited data

How the results depend on the processing

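Of 128 recomputed values, 108 kept their direction and side of the threshold or, for levels and counts, stayed within the spread between pools or within 1.5 times. Part of these 108 was fixed in advance. With 2 libraries, a value from either alone always lies within the SD around their mean. A change of the count filter left each gene's library ratio as it was, and only its adjusted p could move. The tally is therefore no measure of how firm the results are. The calls of Mir335, Mir296, Mir483 and Mir675 held under every scaling, strand and filter run, except that Mir675 was not tested with at least 50 counts, where its 46 counts in library 2 fell short. With the 3 most abundant genes left out of the library size, the levels became 41797 CPM for Mir335, 3937 CPM for Mir298, 3635 CPM for Mir296, 385 CPM for Mir483 and 21.1 CPM for Mir675, by construction. Under the same scaling Mir298 passed the test at a log2 library ratio of -0.080 (adjusted p = 0.00015, exact binomial test), so that 1 of the 5 genes was higher in library 2; its adjusted p ranged from 0.0774 to 0.960 under the other settings. The Dlk1-Dio3 genes called higher in library 1 fell to 2 under it, against 5 with TMM, and those of Sfmbt2 numbered 0 to 2 in each direction over all settings. Mir298 was 2068 CPM with DESeq2 size factors and 2065 CPM with unstranded counts. Genes at least 1.5-fold apart numbered 300 with no filter, 73 with at least 5 counts and 31 with at least 50 counts, as more or fewer low genes entered. Leaving out either library gave 21044 to 23637 CPM for Mir335, 2100 to 2103 for Mir298, 1775 to 2113 for Mir296, 167 to 246 for Mir483 and 7.62 to 15.1 for Mir675. No paired analysis was possible because both libraries belong to 1 group. Depth limits Mir675 most.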
